A study of Mus musculus with 151 samples.

Results

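The Usher protein genes are 9 of the 55291 genes counted in single hair cells of the mouse cochlea, chosen by name from what their proteins are known to do: *Myo7a*, *Ush1c*, *Cdh23*, *Pcdh15*, *Ush1g*, *Adgrv1*, *Whrn*, *Pdzd7* and *Clrn1*. These genes and all gene lists used below were chosen with earlier results of these data known. Their shares of called genes, set against all genes, are therefore descriptions and cannot show enrichment. Mutations of the Usher protein genes or their human counterparts cause deafness, with or without loss of vision. In the hair bundle, cadherin 23 and protocadherin 15 form the tip link that pulls on the transduction channel, and myosin VIIa, harmonin (*Ush1c*) and Sans (*Ush1g*) hold its upper end. During bundle growth a second complex, which holds *Adgrv1*, whirlin (*Whrn*) and *Pdzd7*, forms the ankle links at the base of the stereocilia, and whirlin also sits at stereocilium tips. Clarin-1 (*Clrn1*) is a membrane protein with several membrane-spanning stretches.

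The study asked what the transcription factor Tbx2 does in inner hair cells (IHCs), the primary sensory cells of the cochlea. The cells fell in 3 groups, 55 P14_WT IHCs, 46 P14_iOHCs and 50 P30_WT IHCs, from mice of the C57BL/6 strain. Both WT groups carried vGlut3-P2A-iCreER/+ and Ai9/+, and were taken at postnatal day 14 or 30. The iOHCs, IHCs that took up features of outer hair cells (OHCs), carried the same alleles with Tbx2 flox/- and were taken at day 14. Their other *Tbx2* allele was thus null in every cell of the animal. Tamoxifen after birth switched on Cre under the vGlut3 gene in all groups, and Tdtomato-positive cells were picked by hand. The iOHCs were also picked for small size. Their differences from P14_WT IHCs cannot be told apart from mouse, day of picking or this selection. Each library is 1 cell, and since no source used here says how many mice gave the cells, p-values measure the spread between cells.

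The targeted gene was lower in P14_iOHCs, with overlap between the groups. *Tbx2* ranged from 49.5 to 754 CPM (the count scaled to 1000000 counts per cell), median 240.3, in P14_WT IHCs, and from 0 to 427, median 41.4, in P14_iOHCs (log2 fold change -1.93 ± 0.33 SE, adjusted p = 1.7e-06, edgeR quasi-likelihood test). Counts summed over a whole gene cannot tell whether a given cell lost the floxed exon. *Slc26a5*, which encodes the OHC motor Prestin, had a count in 46 of 46 P14_iOHCs and in 2 of 55 P14_WT IHCs. Markers of hair cells in general and of other cells moved with the groups too. The marker lists were also chosen with earlier results of these data known, so their shares of calls are descriptive. The summed level of 9 general hair cell markers had a median of 35342 CPM (21979 to 43267) in P14_WT IHCs, 20249 (3695 to 39826) in P14_iOHCs and 31683 (8580 to 42774) in P30_WT IHCs. *Myo6*, a hair cell myosin, was lower in P14_iOHCs (log2 fold change -0.49 ± 0.10 SE, adjusted p = 3.1e-05, edgeR) and higher in P30_WT IHCs (0.30 ± 0.07 SE, adjusted p = 0.0023, edgeR). The 9 markers moved in both directions. In P14_iOHCs 3 were called lower and 2 higher, against 5.52% and 8.87% of all genes tested. Their median log2 fold change was 0.13. In P30_WT IHCs 2 were called lower and 1, *Myo6*, higher, against 2.42% and 2.01% of all genes tested. Of 18 supporting cell markers, 9 had a count in at least 50% of the P14_iOHCs against 1 in P14_WT IHCs, and their summed level ranged from 0 to 23568 CPM (median 2927) against 27.96 to 6057 (median 822), and from 63.4 to 2781 (median 646) in P30_WT IHCs. Of the 13 supporting cell markers tested in P14_iOHCs, 8 were called higher and 0 lower, against 8.87% and 5.52% of all genes tested. *Prox1* was at 0 in every cell of both P14 groups, and *Epyc* in every P30_WT IHC. In P14_iOHCs, 3 of 4 tested glial markers (*Mbp*, *Sox10* and *Mal*) and 1 of 4 fibroblast markers (*Lum*) were called higher, and 2 of 5 neuronal markers (*Nefl* and *Nefm*) and 1 of 2 immune markers (*C1qb*) lower. *C1qb* was also called lower in P30_WT IHCs. The called glial, fibroblast and immune markers had a count in 16 (*Mbp*) to 48 (*Lum*) of the 101 P14 cells. Calls by edgeR on genes found in few cells were unreliable in simulated data. The rank-sum test in P14_iOHCs gave an adjusted p of 2.7e-08 for *Sox10*, 8.6e-07 for *Mal* and 0.032 for *Mbp*. It gave 0.00016 for *Lum* and 1.8e-08 for *C1qb*. The part of these markers in the results on *Ush1c* and *Whrn* was not tested beyond the supporting cell score, under which both calls stood. Total counts per cell ranged from 4326416 to 25035444 and fell in a lower set of 51 cells and an upper set of 100, with cells of every group in both.

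**Figure D1:**
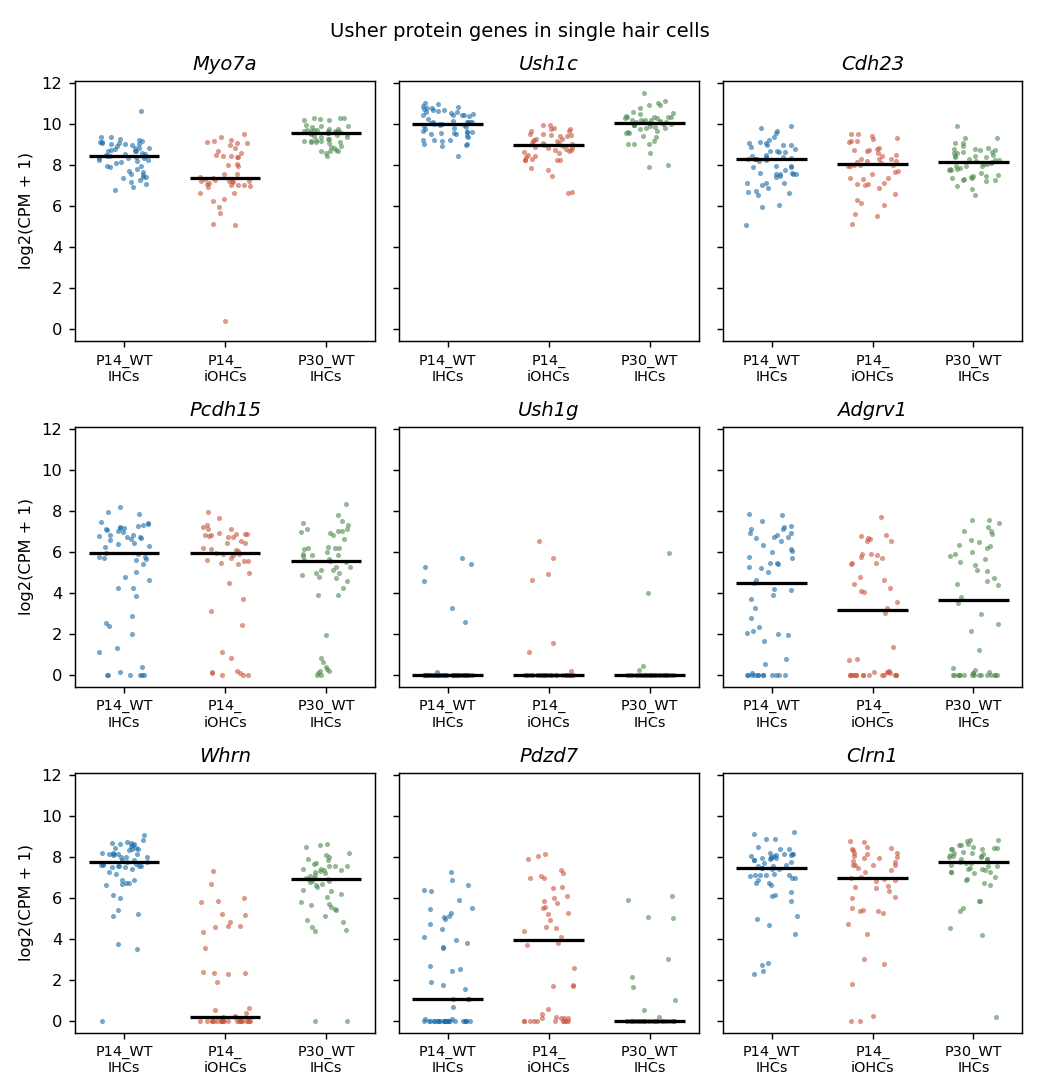
Each panel plots 1 Usher protein gene and each point 1 cell, as log2(CPM + 1) on the vertical axis against group, with the group median as a bar. *Whrn* sits near 0 in many of the 46 P14_iOHCs, *Ush1c* is lower in them as a group, and *Myo7a* is highest in the 50 P30_WT IHCs.

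Of the 9 genes, 3 were lower in P14_iOHCs than in P14_WT IHCs, *Whrn*, *Ush1c* and *Myo7a*, and none passed as higher. The genes that form the tip link itself, *Cdh23* and *Pcdh15*, did not pass the test. All 9 had enough counts to be tested (at least 5 counts in at least 10 cells). Among all 13673 genes tested, 5.52% were called lower and 8.87% higher at the same threshold, an adjusted p under 0.05. Because the Usher protein genes were chosen with earlier results of these data known, this contrast is only a description. With genes found in at least 50% of the cells alone, a fit added after the data were seen, the same 3 genes were called, against 5.7% of all genes lower and 7.23% higher. Over the 9 genes the median log2 fold change was -0.30, against 0.11 over all genes tested. The count of 0 higher came from edgeR. It was also 0 at an unadjusted p under 0.05, with DESeq2 and with limma, and 1, *Pdzd7*, with the rank-sum test. The rank-sum test called 1981 of all 13673 genes higher, against 1213 with edgeR. A threshold of a log2 fold change under -2 left only *Whrn*, and 3.31% of all genes passed it downwards.

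Whirlin is a scaffold with PDZ domains that is found at both the ankle links and the stereocilium tips. *Whrn* ranged from 0 to 529 CPM, median 211, in P14_WT IHCs, and from 0 to 158 CPM, median 0.12, in P14_iOHCs. It had a count in 54 of 55 P14_WT IHCs and in 25 of 46 P14_iOHCs (54.3%, 95% Wilson interval 40.2 to 67.8%), of which 21 held more than 3 counts. Although the ranges overlapped, all 46 P14_iOHCs lay below the median of the P14_WT IHCs, and 39 of 55 P14_WT IHCs lay above the highest P14_iOHC. The fitted level was 15.9-fold lower (log2 fold change -3.99 ± 0.64 SE, adjusted p = 3.4e-07, edgeR). It was called under all 17 alternatives tried, among them both sets of totals. The log2 fold changes ran from -3.60 to -9.09. The value of -9.09 came from a fit with the cell number of the labels as a block, and that number does not pair the cells. The value of -7.38 with limma on log2(CPM + 0.1) depends on the constant added.

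Harmonin, the scaffold that ties cadherin 23 to the actin core, is made from *Ush1c*. *Ush1c* ranged from 347 to 2061 CPM, median 1027, in P14_WT IHCs, and from 97.5 to 984 CPM, median 497, in P14_iOHCs. Every cell of both groups had a count. Here too all 46 P14_iOHCs were below the median of the P14_WT IHCs, and 11 of them lay below the lowest P14_WT IHC. Of 55 P14_WT IHCs, 31 lay above the highest P14_iOHC, and the remaining cells of both groups overlapped. The fitted level was 2.11-fold lower (log2 fold change -1.08 ± 0.13 SE, adjusted p = 5.5e-11, edgeR), and it was called under all 17 alternatives. Exons of *Ush1c* share 120 bases, 3.12% of their length, with *Gm9860* on the opposite strand, and the strand setting of the counting is not given in the sources used here.

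The 250 bases before the RefSeq start of *Whrn* and *Ush1c*, the genes with the clearest differences, are shown with each CG in capitals. They lie in GRCm38.p6 on the minus strand, at chr4:63495992-63496241 for *Whrn* and chr7:46238491-46238740 for *Ush1c*, and are written 5′ to 3′. In GENCODE M21 the genes themselves span chr4:63414910-63495991 and chr7:46195350-46238503.
Whrn: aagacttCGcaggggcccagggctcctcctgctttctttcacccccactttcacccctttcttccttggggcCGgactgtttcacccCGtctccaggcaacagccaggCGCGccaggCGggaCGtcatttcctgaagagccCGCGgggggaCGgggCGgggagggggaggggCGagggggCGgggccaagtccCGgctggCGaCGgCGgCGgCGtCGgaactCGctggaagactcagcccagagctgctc
Ush1c: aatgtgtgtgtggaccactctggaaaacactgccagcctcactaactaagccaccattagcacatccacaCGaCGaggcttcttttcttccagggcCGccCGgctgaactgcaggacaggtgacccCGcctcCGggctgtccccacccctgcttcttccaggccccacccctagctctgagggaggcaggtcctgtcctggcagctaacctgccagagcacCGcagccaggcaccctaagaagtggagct
The *Whrn* window held 21 CG, and 16.4% of all 32851 promoters in the table held as many or more. The *Ush1c* window held 7, against a median of 6. The T-box core AGGTGT, searched on both strands, was in none of the 9 windows of the 8 genes that matched the table, and in 11.8% of all promoters.

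*Myo7a*, the myosin that works at the upper end of the tip link and a general marker of hair cells, showed the least stable of the 3 calls. It ranged from 108 to 1574 CPM, median 347, in P14_WT IHCs, and from 0.31 to 724 CPM, median 164, in P14_iOHCs. Of 46 P14_iOHCs, 34 lay below the median of the P14_WT IHCs and 12 above it, so the groups overlapped widely. The log2 fold change was -0.58 ± 0.20 SE (adjusted p = 0.041, edgeR). The adjusted p was 0.61 with the supporting cell score as a covariate (log2 fold change -0.25), and it was also above 0.05 in 4 other fits whose folds moved less: 0.14 without 5 outlying P14_WT IHCs (-0.46), 0.17 in the upper (-0.49) and 0.69 in the lower set of totals (-0.77), and 0.057 with filterByExpr (-0.56). Within the 46 P14_iOHCs, Spearman's rho of *Myo7a* with that score was -0.40, against -0.15 in the 55 P14_WT IHCs, over cells that share a picking and a library method. In the same P14_iOHCs it was -0.53 for *Cdh23* and -0.36 for *Clrn1*, which were not called lower. The part of the supporting cell RNA in the result was not tested beyond this covariate.

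**Figure D2:**
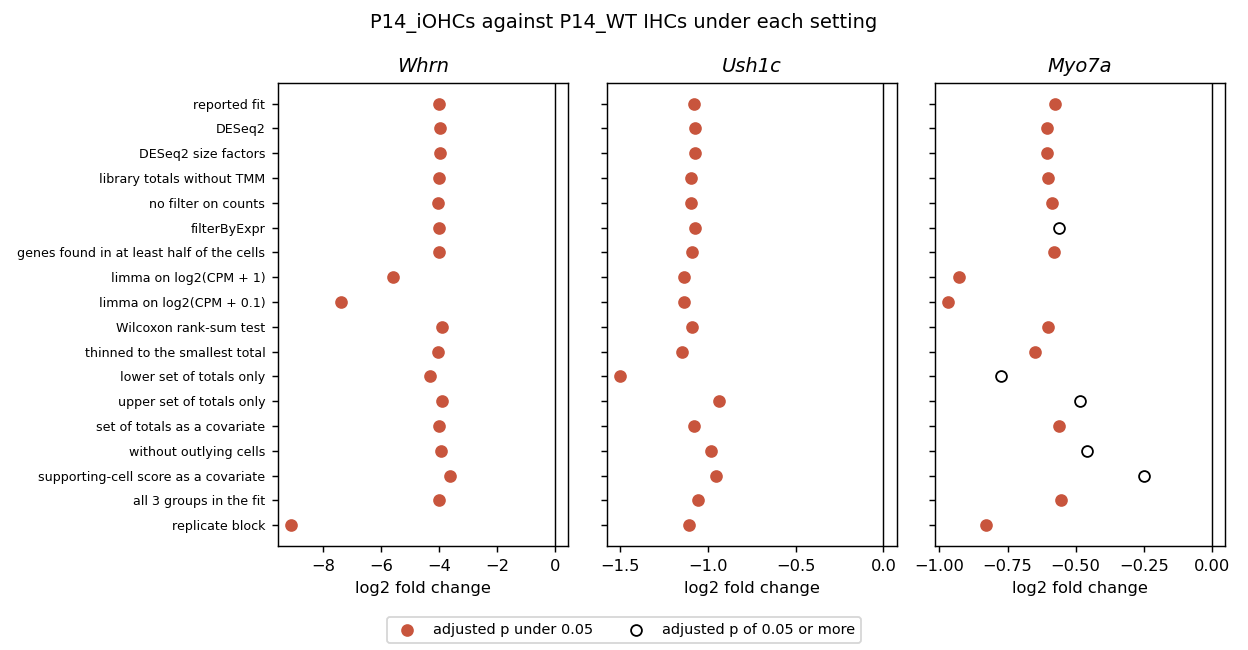
Each point is the log2 fold change of *Whrn*, *Ush1c* or *Myo7a* in P14_iOHCs against P14_WT IHCs (horizontal axis, a separate scale for each gene) under 1 setting (vertical axis), filled where the adjusted p was under 0.05. *Whrn* and *Ush1c* are filled throughout, and *Myo7a* is open in 5 of the 17 alternatives.

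The link cadherins lay close together in both groups. *Cdh23*, the upper half-link, ranged from 32.3 to 942 CPM, median 309, in P14_WT IHCs, and from 33.7 to 720 CPM, median 265, in P14_iOHCs. Its log2 fold change was -0.11 ± 0.20 SE (adjusted p = 0.84, edgeR). *Pcdh15*, the lower half-link, had medians of 60.8 and 59.9 CPM and was at 0 in 6 of 55 and 3 of 46 cells (log2 fold change -0.14 ± 0.48 SE, adjusted p = 0.92, edgeR). The standard error of *Pcdh15* leaves room for a difference of the size seen for *Myo7a*. *Clrn1* ranged from 3.90 to 580 CPM, median 176, in P14_WT IHCs and from 0 to 431 CPM, median 125, in P14_iOHCs (log2 fold change -0.30 ± 0.31 SE, adjusted p = 0.67, edgeR).

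Sparse counts limited the other ankle-link genes and *Ush1g*. *Adgrv1*, the large adhesion receptor of the ankle link, had a count in 43 of 55 P14_WT IHCs and 32 of 46 P14_iOHCs, with medians of 21.1 and 7.86 CPM (log2 fold change -0.84 ± 0.69 SE, adjusted p = 0.55, edgeR). *Pdzd7*, a scaffold related to whirlin, had a count in 31 of 55 P14_WT IHCs and 36 of 46 P14_iOHCs, with medians of 1.06 and 14.4 CPM and maxima of 152 and 276. Its direction was thus opposite to that of *Whrn*, but the log2 fold change of 1.41 ± 0.76 SE did not pass (adjusted p = 0.26, edgeR). The rank-sum test put it at an adjusted p of 0.035. Exons of *Pdzd7* share 206 bases, 5.08% of their length, with *Lzts2* on the opposite strand. *Ush1g* had a count in 7 of 55 and 7 of 46 cells and a median of 0 in both, and leaving out 1 cell turned the sign of its ratio of means, so no direction can be given.

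With age the picture in IHCs was different: *Myo7a* was higher in P30_WT IHCs than in P14_WT IHCs, and no other member passed. *Ush1g* had too few counts, so 8 of the 9 genes were tested. Among all 12946 genes tested, 2.01% were called higher and 2.42% lower. With genes found in at least 50% of the cells alone these shares were 2.84% and 2.64%, and *Myo7a* was again the only member called. The comparison uses the same P14_WT IHCs as the one above, and age cannot be told apart from mouse or day of picking. The 0 lower calls came from edgeR, and DESeq2 gave 0. At an unadjusted p under 0.05 there were 2, *Whrn* and *Pdzd7*. The rank-sum test and limma on log2(CPM + 1) also called 2, and limma on log2(CPM + 0.1) called 1. Among all 12946 genes, these tests called 1163, 1170 and 1283 lower in that order, against 313 with edgeR. The number of all genes at an unadjusted p under 0.05 is not given here.

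*Myo7a* ranged from 342 to 1268 CPM, median 745, in P30_WT IHCs. Although 1 P14_WT IHC lay above all of them, 49 of 50 P30_WT IHCs were above the median of the P14_WT IHCs, and 25 of 55 P14_WT IHCs were below the lowest P30_WT IHC. The log2 fold change was 1.03 ± 0.13 SE, or 2.04-fold (adjusted p = 2.1e-10, edgeR), and it was called under all 17 alternatives. Mitochondrial genes took 9.35 ± 4.94% of the counts (SD, n = 50) in P30_WT IHCs and 6.54 ± 3.24% (SD, n = 55) in P14_WT IHCs. Across the cells of a group, *Myo7a* had a Spearman's rho with this share of 0.34 in P30_WT IHCs and 0.32 in P14_WT IHCs, and with the total count of -0.33 and -0.41. The part of the mitochondrial share in the difference was not tested, and *Myo7a* was called within both sets of totals. *Whrn* had a median of 120 CPM (0 to 389) in P30_WT IHCs, with 42 of 50 cells below the median of the P14_WT IHCs. Its log2 fold change was -0.72 ± 0.27 SE and did not pass (adjusted p = 0.13, edgeR), while the rank-sum test gave an adjusted p of 0.0022. *Pdzd7* had a count in 10 of 50 P30_WT IHCs (log2 fold change -2.15 ± 0.95 SE, adjusted p = 0.26, edgeR; rank-sum test 0.0027). *Ush1c* stayed near its P14 level, with a range of 240 to 2935 CPM and a median of 1067 (log2 fold change 0.06 ± 0.12 SE, adjusted p = 0.97, edgeR).

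**Figure D3:**
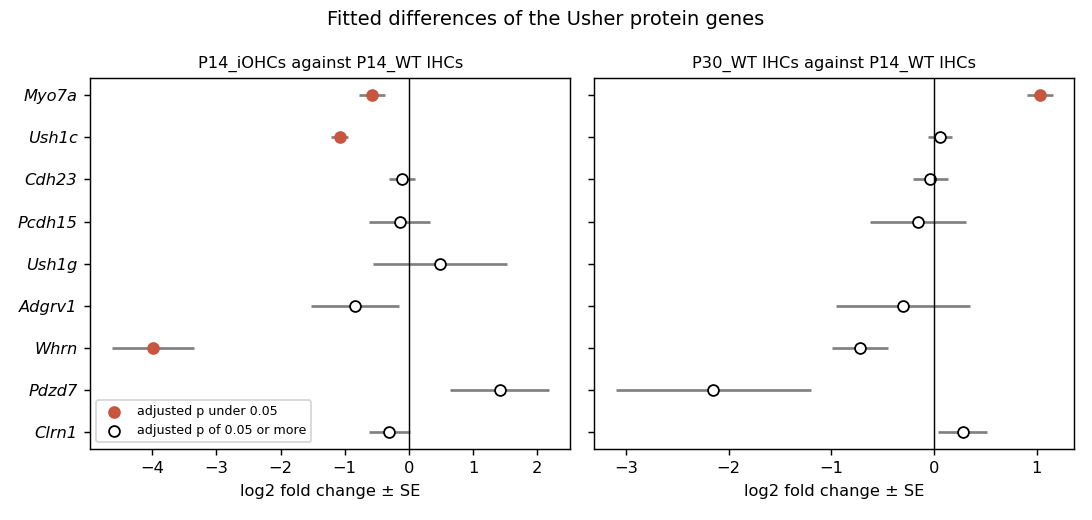
Points give the log2 fold change of each Usher protein gene (horizontal axis) with its SE as a bar, in P14_iOHCs (left) and P30_WT IHCs (right) against the same P14_WT IHCs, filled where the adjusted p was under 0.05. *Whrn*, *Ush1c* and *Myo7a* are filled on the left and *Myo7a* on the right, where *Ush1g* was not tested.

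Levels were compared between genes per transcript length, as TPM computed from the counts and union exon lengths. *Ush1c* led in every group, at 696 ± 275 TPM (SD, n = 55) in P14_WT IHCs, 298 ± 135 (SD, n = 46) in P14_iOHCs and 678 ± 324 (SD, n = 50) in P30_WT IHCs. It was above the next gene in 55 of 55, 45 of 46 and 48 of 50 cells. *Clrn1* and *Myo7a* followed, at 122 ± 85.7 and 109 ± 64.4 TPM in P14_WT IHCs, and did not differ beyond their spread. *Whrn* was the fourth highest in P14_WT IHCs, at 73.8 ± 40.4 TPM, and the seventh in P14_iOHCs, at 4.54 ± 10.4 TPM. *Adgrv1* and *Ush1g* were the lowest in P14_WT IHCs and P14_iOHCs, at 4.80 ± 5.805 and 2.36 ± 8.13 TPM in P14_WT IHCs. Most neighbours in the order differed by less than the larger of their SDs.

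**Figure D4:**
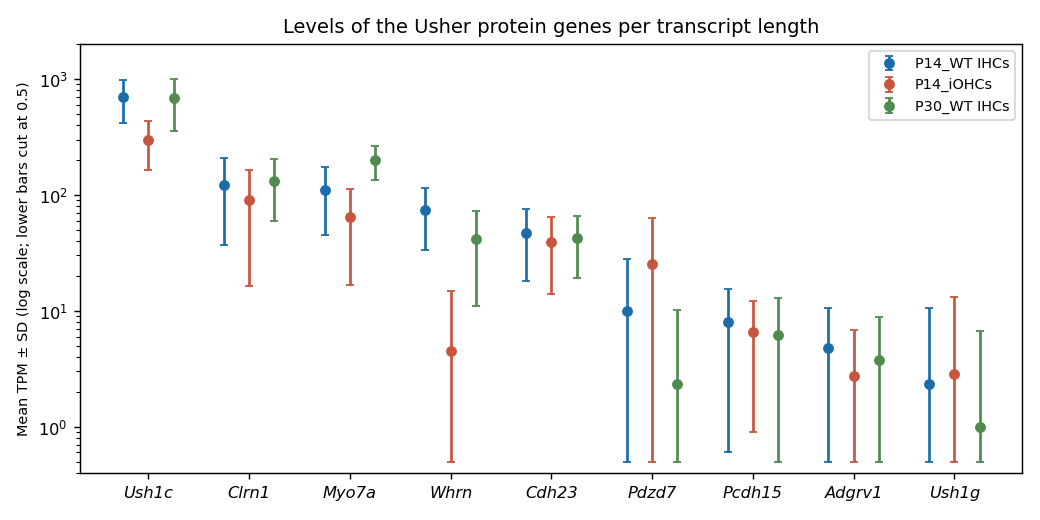
Mean TPM on a log axis, with the SD over cells as bars cut at 0.5, for the Usher protein genes in the order of P14_WT IHCs; colours mark the groups. *Ush1c* is the highest in all 3 groups, and *Whrn* in P14_iOHCs stands far below its level in both WT groups.

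Within a group the rank correlations between the 9 genes were low at the median. Many cells were at 0 for some genes, which limits rho for their pairs. *Ush1g* was at 0 in 48 of 55 P14_WT IHCs, 39 of 46 P14_iOHCs and 46 of 50 P30_WT IHCs. *Pdzd7* was at 0 in 24, 10 and 40 of these cells in the same order. Over the 36 pairs of genes, the median Spearman's rho was 0.02 in P14_WT IHCs (-0.25 to 0.32), 0.13 in P14_iOHCs (-0.14 to 0.33) and 0.00 in P30_WT IHCs (-0.18 to 0.36). Over all cells the genes most like *Ush1c* were *Otof*, rho 0.72, and *Map4k4*, 0.69. Those most like *Whrn* were *Myl4*, 0.72, and *Ntf3*, 0.69. The mean rho within groups was lower for each pair. It was 0.43 for *Ush1c* with *Otof* and 0.37 with *Map4k4*, and 0.33 for *Whrn* with *Myl4* and 0.11 with *Ntf3*. The value for *Whrn* and *Ntf3* thus rests mostly on the groups, and the others rest on them in part. *Cdh23* was most like *Myo15*, with 0.49 over all cells and 0.52 within groups. These are descriptions over cells that share a group and a library method, among 7984 genes found in at least 50% of the cells.

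Other genes of the links showed changes in both directions. The link, tip, transduction and brush border lists were chosen with earlier results of these data known. Their shares of calls against all genes are therefore descriptive. Of 8 further link genes, 2 were called lower and 1 higher in P14_iOHCs, against 5.52% and 8.87% of all genes tested. *Ptprq*, whose product anchors the shaft connectors, ranged from 84.9 to 822 CPM (median 344) in P14_WT IHCs and from 0 to 461 CPM (median 79.8) in P14_iOHCs (log2 fold change -1.82 ± 0.27 SE, adjusted p = 4.3e-08, edgeR). *Strc*, which encodes stereocilin of the top connectors and the tectorial membrane attachment of OHC bundles, rose from a median of 7.87 CPM (0 to 222) to 132 (7.09 to 578), a log2 fold change of 2.89 ± 0.51 SE (adjusted p = 4.4e-06, edgeR). *Cib2*, which encodes a calcium-binding partner of the transduction channel, was called at -0.28 ± 0.10 SE (adjusted p = 0.042, edgeR), and not with genes found in at least 50% of the cells alone (0.052) or with the supporting cell score (0.93).

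At the stereocilium tip, where whirlin also acts, 4 of 9 genes were called lower in P14_iOHCs and 1 higher. The shares over all genes tested were 5.52% and 8.87%. *Myo3a*, a tip-directed myosin, had a count in 55 of 55 P14_WT IHCs (6.92 to 1010 CPM, median 242) and in 25 of 46 P14_iOHCs (0 to 190 CPM, median 0.11). The log2 fold change was -3.48 ± 0.62 SE (adjusted p = 5.6e-06, edgeR). *Gpsm2*, which sets bundle polarity and tip length, was lower by a log2 fold change of -1.09 ± 0.28 SE (adjusted p = 0.0021, edgeR; 0.056 with the supporting cell score). The calls on *Espnl* (-4.56) and *Myo3b* (-3.75) rest on counts in 29 and 25 of 101 cells. Calls by edgeR on genes found in so few cells were unreliable in simulated data, while the rank-sum test gave adjusted p of 0.00044 and 0.00905. *Myo15*, the myosin that carries whirlin to the tips, was the 1 higher, at 0.60 ± 0.17 SE (adjusted p = 0.0059, edgeR), and is named after its value was seen.

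Among the 6 transduction genes, 4 were tested. In P14_iOHCs 1 was called higher and 1 lower, against 8.87% and 5.52% of all genes tested. *Tmc1*, the channel subunit at the lower end of the tip link, was higher in P14_iOHCs (medians 509 and 697 CPM, log2 fold change 0.52 ± 0.14 SE, adjusted p = 0.0052, edgeR), and *Tomt*, needed to bring the channel to the bundle, lower (-0.80 ± 0.23 SE, adjusted p = 0.0080, edgeR; 0.075 with the supporting cell score). Of 6 genes for the related links of intestinal brush borders, *Calml4* alone had enough counts, and it was called lower at -0.47 ± 0.12 SE (adjusted p = 0.0018, edgeR; 0.18 with the supporting cell score). In P30_WT IHCs, 2 link genes were called higher and 1 lower: *Clrn2*, the gene of clarin-2 (2.25 ± 0.42 SE), and *Vezt*, the gene of vezatin (1.31 ± 0.39 SE), then *Cib2* (-0.53 ± 0.07 SE). At the tip *Espn*, an actin bundler, was lower (-0.70 ± 0.10 SE), as was *Myo3b*, found in 20 of 55 P14_WT IHCs and 2 of 50 P30_WT IHCs. None of the 4 transduction genes tested was called with age by edgeR. The rank-sum test called *Tomt* (adjusted p 0.0033) and *Lhfpl5*, of the same channel complex (0.0079), lower in P30_WT IHCs. Their edgeR log2 fold changes were -0.58 and -0.23. The rank-sum test called 1163 of all 12946 genes lower. Of all genes tested with age, 2.01% were called higher and 2.42% lower.

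**Figure D5:**
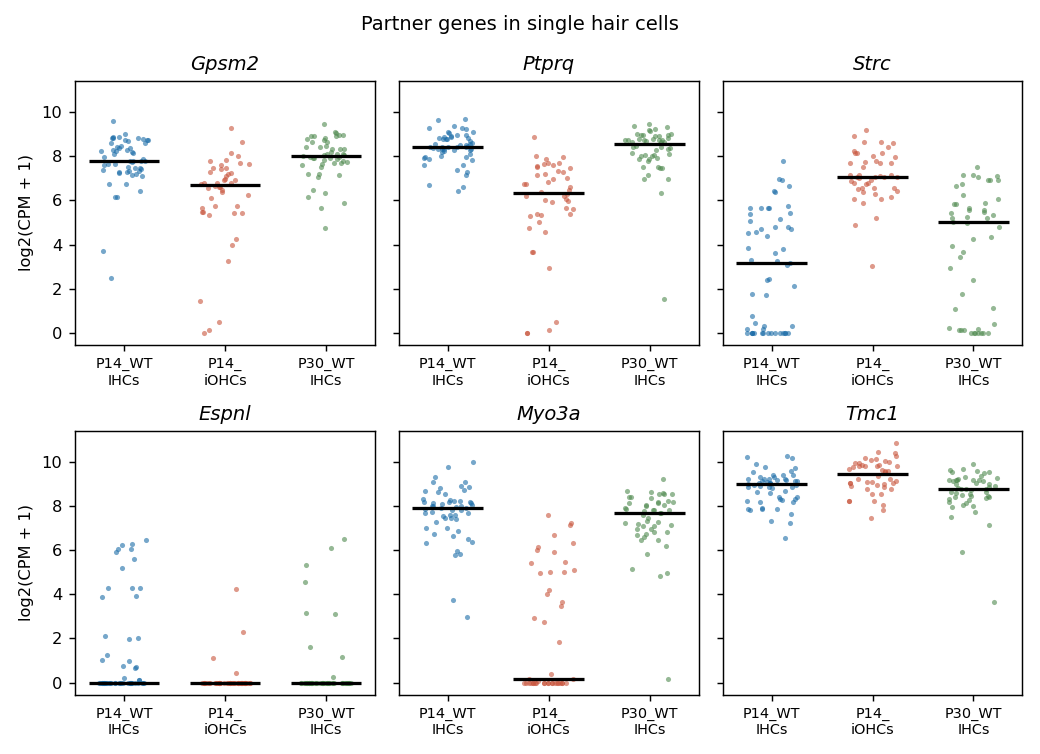
Each point is 1 cell, as log2(CPM + 1) against group with the median as a bar, for 6 genes of the link, tip and transduction lists. *Gpsm2*, *Ptprq* and *Myo3a* are lower and *Strc* higher in the 46 P14_iOHCs, and *Espnl* is at 0 in most cells of every group.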

How the data were processed

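The authors made Smart-seq libraries from single picked cells, trimmed reads with Trimmomatic 0.39, aligned them to mm10 with HISAT2 2.1.0 and counted them per gene with HTSeq 0.10.0, per the labels and the submitters' processing notes. The deposited values are these raw counts, whole numbers for 55291 genes in 151 cells. The annotation release and strand setting are not given in the sources used here. From the counts, CPM and TPM (GENCODE M21 union exon lengths, found for 53186 genes) were computed. Groups were compared with edgeR 4.0.16 (TMM, robust glmQLFit, glmQLFTest) in R 4.3.3 after a filter that kept a gene if 10 or more cells held 5 or more counts, with Benjamini-Hochberg adjustment over all genes tested. This test gives no SE. The SE printed with an edgeR log2 fold change is its absolute value divided by the square root of the F statistic. DESeq2 1.42.0, limma 3.58.1 and a Wilcoxon rank-sum test were alternatives.

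The fits were tested on simulated data. For genes with a count in at least 50% of the cells, false calls were few in negative binomial draws and somewhat above the nominal rate when real counts were changed by known folds, and many changes of a log2 fold of 1 were missed. For sparser genes, most calls in the negative binomial draws were false. With real counts such genes gave very few calls, most of those also false, and the changed genes among them were nearly all missed. The edgeR calls on sparse genes are therefore uncertain, and a fit of only the genes found in at least 50% of the cells (8211 and 7930 genes) was added after seeing the data.

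The 9 genes and all lists were chosen with earlier results of these data known. All 9 genes are named, as are called genes of the link, tip, transduction and brush border lists, at most the 4 with the largest change per list. *Cib2* is named whether called or not. *Myo15* and *Lhfpl5* were named outside this rule after their values were seen. A further gene of these lists is not reported here. A cell was taken as outlying when its genes detected or mitochondrial share differed from the group median by more than 3 median absolute deviations. The supporting cell score is the mean log2(CPM + 1) of 18 markers. No 2 libraries were identical among 3745 pairs within groups. Wilson intervals cover the sampling of cells only. The reads carry no molecular identifiers, so counts are not numbers of molecules. A count of 3 was 0.120 to 0.693 CPM.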

Additional observations from a re-analysis of the deposited data

How the results depend on the processing

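In P14_iOHCs, *Whrn* and *Ush1c* were called lower under all 17 alternatives and *Myo7a* under 12. The count of 3 lower genes became 1 with an added log2 fold change over 2, and the count of 0 higher genes became 1 with the rank-sum test. That test called 1981 of all 13673 genes higher, against 1213 with the reported fit. In P30_WT IHCs, *Myo7a* was called higher under all 17 alternatives, and the count of 1 became 0 with the added fold threshold. The count of 0 lower genes became 2 with limma on log2(CPM + 1), 1 with limma on log2(CPM + 0.1), 2 with the rank-sum test and 2 at an unadjusted p under 0.05. With the cell number of the labels as a replicate block it became 1. Among all genes, the rank-sum test, both limma fits and the block also called more lower than the reported fit did. The block left the other counts within 1.5 times, at 3 lower and 0 higher in P14_iOHCs and 1 higher in P30_WT IHCs. Cells with the same number did not deviate together (highest r 0.03 over 46 pairs and 0.05 over 50), so the number does not pair them.

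Genes that no setting called changed sign in places. In P14_iOHCs, *Cdh23* was at 0.19 in the upper set of totals, 0.039 without outlying cells and 0.26 with the supporting cell score. With that score *Pcdh15* was at 0.13, *Clrn1* at 0.052 and *Ush1g* at -0.049. *Pcdh15* was at 0.11 with the block, and *Adgrv1* at 0.11 and *Clrn1* at 0.22 in the lower set of totals. In P30_WT IHCs, *Ush1c* was at -0.012 with limma on log2(CPM + 1), -0.013 with limma on log2(CPM + 0.1) and -0.45 in the lower set. *Cdh23* was at 0.067 and 0.068 on these scales, 0.30 in the upper set, 0.12 without outlying cells and 0.10 with the block, and *Pcdh15* at 0.26 in the lower set. The causes were not tested. All 27 shares of cells with a count stayed within their intervals when cells were thinned to 4326416 counts. Thinning to the smallest total of the cells fitted left the counts of called genes at 3, 0, 1 and 0 (lower and higher in P14_iOHCs, higher and lower in P30_WT IHCs).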
